A study of Rattus norvegicus with 13 samples.

Results

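Striated muscle removes worn or surplus protein through the ubiquitin-proteasome system, in which an E3 ubiquitin ligase selects the substrate. Muscle carries its own ligases: the F-box proteins Fbxo32 (atrogin-1), Fbxo40 and Fbxo30 (MUSA1), the RING proteins Trim63, Trim55 and Trim54 (MuRF1, MuRF2 and MuRF3), and Asb2, a SOCS-box protein. The forkhead factors Foxo1, Foxo3 and Foxo4 switch on Fbxo32, Trim63 and autophagy genes in wasting muscle of mice. Insulin and IGF1 acting through the kinase AKT hold these factors in the cytoplasm, a control by phosphorylation that RNA counts do not show. The genes described here are these 7 ligases and 3 FOXO factors, taken by name from each count table. All 10 were found among the 25600 names listed at 2 months and the 38600 names listed at 6 and 8 months, and all 10 passed the filter on low counts in every comparison.

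The data are 13 bulk RNA-seq libraries from rat hearts. Hearts of the sonogenetic group, written ST here, were transduced with AAV2/9-cTnT-MscL-G22S-mCherry, a viral vector in which a cardiac troponin T promoter, active in heart muscle cells, drives the mechanosensitive bacterial channel variant MscL-G22S with the red fluorescent protein mCherry. The treatment of WT hearts is labelled as none. There were 3 ST hearts at 8 months, 3 ST and 3 WT hearts at 6 months and 2 ST and 2 WT hearts at 2 months, and no WT hearts of 8 months were analysed here. The labels call the libraries biological replicates and do not give strain, sex, whether a month is age or time after transduction, or whether ultrasound was applied.

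The transgene matched every label, with 610 to 1003 counts in ST hearts at 8 months, 767 to 1667 at 6 months, 127 and 94 at 2 months, and 0 in each WT heart, which allows up to 0.459 CPM (counts scaled to a common library size) in the shallowest of them. Library totals were 4.70 to 5.57 M counts in ST hearts at 8 months, 6.72 to 8.49 M in ST and 7.02 to 7.48 M in WT hearts at 6 months, and 8.52 and 11.3 M in ST and 6.54 and 8.70 M in WT hearts at 2 months. Heart muscle markers summed to 116000 CPM or more in every library. Skeletal muscle also makes these ligases. Its markers, 11 listed at 2 months and 14 later, summed to at most 48.8 CPM in any library. The myogenic factors Myod1, Myog and Myf6 were at 0 in all libraries. In whole-heart RNA fewer cells of a type and less RNA per cell cannot be told apart.

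The main pattern was a split within the family. Fbxo32 and Foxo3 were lower in ST than in WT hearts at 6 months. Both were called lower again in ST hearts at 8 months, though this further step of Foxo3 was small and did not pass in every setting. Asb2 was higher in both ST groups than in WT hearts of 6 months. Against those WT hearts, Trim63, Trim54 and Fbxo40 were called higher in ST hearts at 6 months and not at 8 months. None of these 6 genes passed the test at 2 months. Foxo1 was called lower in ST than in WT hearts at 6 months, and not at 8 months against those WT hearts. Trim55 and Foxo4 passed in no comparison. ST hearts of 8 months could be set only against WT hearts of 6 months, where vector, time point and count table cannot be told apart.

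Levels are CPM scaled by TMM, a method that removes differences in library composition, set separately for the table of 2 months and jointly for those of 6 and 8 months. Levels of 2 months are not compared with later ones, since those tables list different genes. Changes are log2 fold changes with their standard error (SE) from the quasi-likelihood F test of edgeR, and a gene was called where its p-value, adjusted by Benjamini-Hochberg over all genes tested, was under 0.05. Levels of different genes are not ranked against each other, because counts also follow transcript length.

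**Figure D1:**
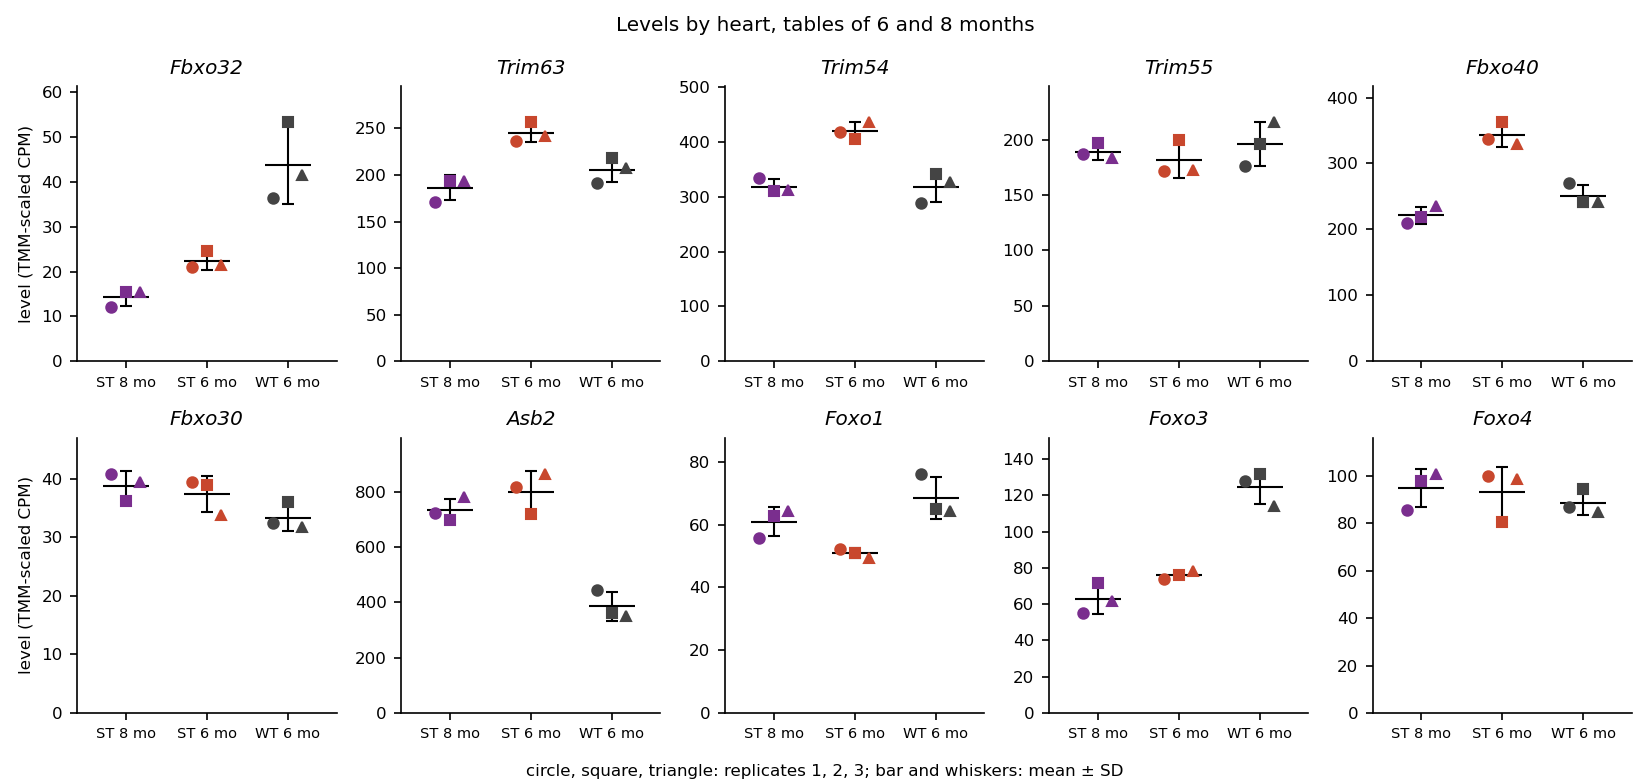
Level of each gene (vertical axis, TMM-scaled CPM, from 0) in each heart of the tables of 6 and 8 months, with 3 hearts per group and the mean ± SD as bar and whiskers. Fbxo32 and Foxo3 step down towards the ST hearts of 8 months, Asb2 is high in both ST groups, and Trim63, Trim54 and Fbxo40 are highest in ST hearts of 6 months.

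Fbxo32, the F-box subunit that hands substrates to an SCF ligase and a standard marker of muscle wasting, was the ligase with the clearest loss. It had 21.0, 24.6 and 21.5 CPM in ST hearts at 6 months, against 36.5, 53.4 and 41.6 CPM in WT hearts. The highest ST heart lay below the lowest WT heart, and the fit gave a log2 fold change of -0.97 (SE 0.139), a level 0.512 times that of WT hearts (edgeR, adjusted p = 0.000208). A change of this size or more was seen in 10.3% of the 13253 genes tested.

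Foxo3, the FOXO factor known to drive Fbxo32 in mouse muscle, moved the same way. Its levels were 74.0, 75.9 and 78.3 CPM in ST hearts at 6 months and 128, 132 and 114 CPM in WT hearts. The ST hearts lay within a narrow band well below the WT hearts, with a change of -0.71 (SE 0.0751, adjusted p = 1.99e-05). Foxo1, which shares many targets with Foxo3, had 52.4, 51.1 and 49.3 CPM in ST hearts and 76.3, 64.9 and 64.3 CPM in WT hearts. These groups did not overlap either (-0.42, SE 0.0835, adjusted p = 0.00183).

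Foxo4, the smallest change among the FOXO factors at 6 months, had 100, 80.6 and 98.7 CPM in ST hearts and 86.9, 94.5 and 84.8 CPM in WT hearts. The groups overlapped, and the approximate 95% interval of its log2 fold change ran from -0.13 to 0.27. The within-library count ratio of Foxo3 to Foxo4, which needs no scaling between libraries, was 0.739 to 0.942 in ST hearts and 1.34 to 1.48 in WT hearts. The fall of Foxo3 against Foxo4 was thus seen in each ST heart without any size factor.

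Asb2, which directs filamins to a cullin-5 ligase during muscle cell differentiation, showed the reverse of Fbxo32. It had 816, 720 and 866 CPM in ST hearts at 6 months, against 445, 360 and 351 CPM in WT hearts. Every ST heart was well above every WT heart, at 2.09 times the WT level (log2 fold change 1.06, SE 0.0966, adjusted p = 5.93e-06). A change of this size or more was seen in 8.49% of genes, so Asb2 stood near the upper end of these hearts' changes without being extreme. Counts per gene do not tell the muscle form of Asb2 from the form of blood cells.

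The RING ligases Trim63 and Trim54 and the F-box protein Fbxo40 rose by smaller steps. Trim63, which binds titin at the M-band and marks thick filament proteins for removal, had 237, 257 and 242 CPM in ST hearts and 191, 218 and 208 CPM in WT hearts. The groups were close without overlapping (0.26, SE 0.0721, adjusted p = 0.0135). With scaling by library totals alone Trim63 stood at 0.15 with an adjusted p = 0.113 (edgeR). Its call at 6 months thus depended on a scaling for library composition, such as TMM or the size factors of DESeq2.

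Trim54, a microtubule-associated relative of Trim63, had 419, 405 and 437 CPM in ST hearts and 288, 341 and 327 CPM in WT hearts. All ST hearts were above all WT hearts (0.40, SE 0.0774, adjusted p = 0.00156). Fbxo40, which targets the insulin receptor substrate Irs1 in mouse muscle, had 337, 363 and 329 CPM in ST hearts and 270, 241 and 242 CPM in WT hearts, again without overlap (0.45, SE 0.07, adjusted p = 0.000341).

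Trim55, the remaining MuRF protein, had 172, 200 and 173 CPM in ST hearts and 176, 196 and 216 CPM in WT hearts. The groups overlapped and the interval of the log2 change ran from -0.30 to 0.09. RefSeq lists a long non-coding RNA gene, LOC120100781, that overlaps Trim55, and the sources used here do not say whether counting used strand, so reads of the pair may be mixed. Fbxo30, an F-box ligase that BMP signalling restrains in mouse muscle, had 39.4, 38.9 and 33.8 CPM in ST hearts and 32.4, 36.0 and 31.8 CPM in WT hearts, also overlapping, with an interval from -0.05 to 0.37.

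Of the 10 genes 7 were called at 6 months, 4 higher and 3 lower, where 40% of all genes tested were called, 19.9% higher and 20.1% lower. Scaling by library totals split those calls into 1731 higher and 3714 lower genes, against 2643 and 2662 with TMM, and moved the median of all genes to -0.116. The ST and WT hearts did not overlap for those same 7 genes, as against 51.7% of all genes. The median log2 fold change of the 10 was 0.12 and that of all genes -0.002. With so much of the transcriptome changed, what these genes show at 6 months is the direction and size of each and not an unusual number of calls. DESeq2 and limma-voom gave the same 7 calls, and so did each fit that left out 1 heart.

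**Figure D2:**
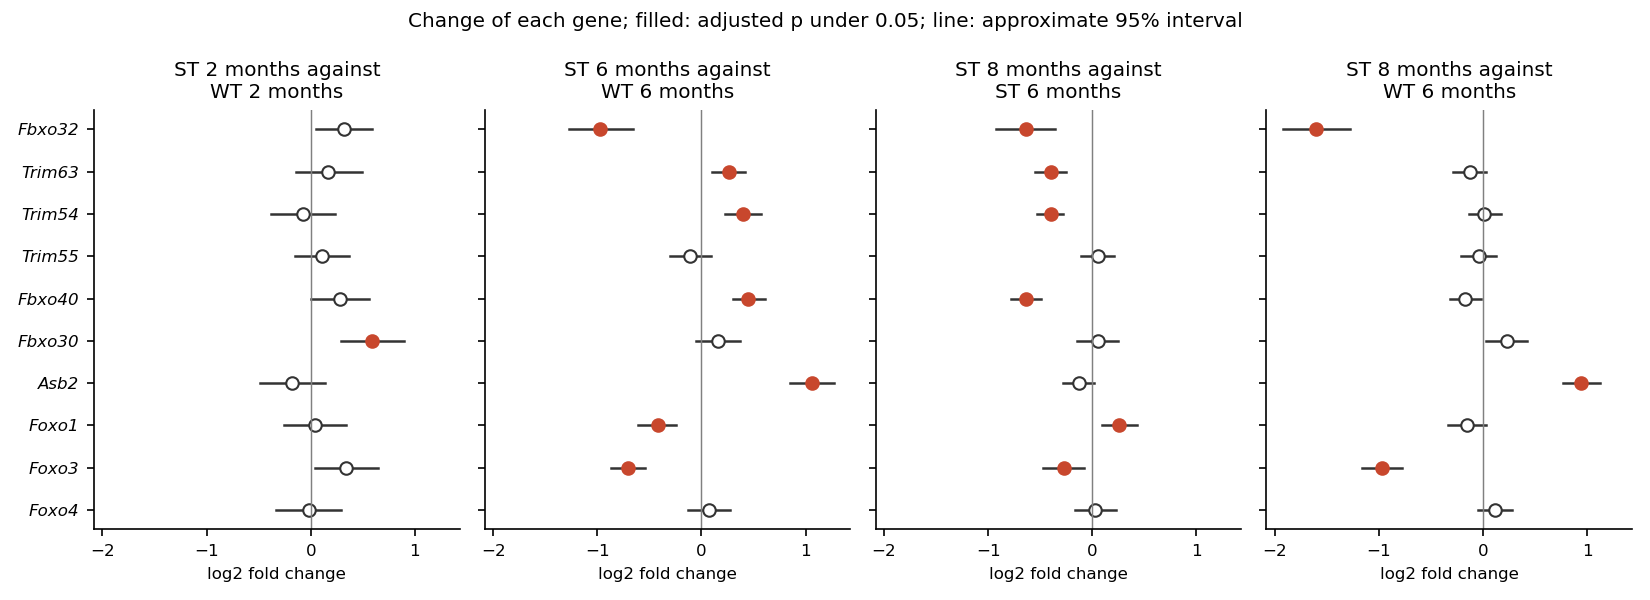
Log2 fold change of each gene (horizontal axis) in the 4 comparisons, with its approximate 95% interval as a line; filled points passed an adjusted p of 0.05. Fbxo32 and Foxo3 lie left of 0 in the 3 later comparisons. Asb2 lies near 1 in ST hearts of 6 and of 8 months, each against WT hearts of 6 months.

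Fbxo32 and Trim63 are usually read together as markers of muscle wasting, and here they parted. The count ratio of Fbxo32 to Trim63 within a library was 0.0705 to 0.0798 in ST hearts at 8 months, 0.0885 to 0.0958 in ST hearts at 6 months and 0.191 to 0.245 in WT hearts at 6 months. No group overlapped another. The ratio of Asb2 to Fbxo40 ran the other way, at 3.19 to 3.45, 1.98 to 2.63 and 1.45 to 1.65 in the same order of groups. These pairs were chosen after the values were seen and carry no test.

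**Figure D3:**
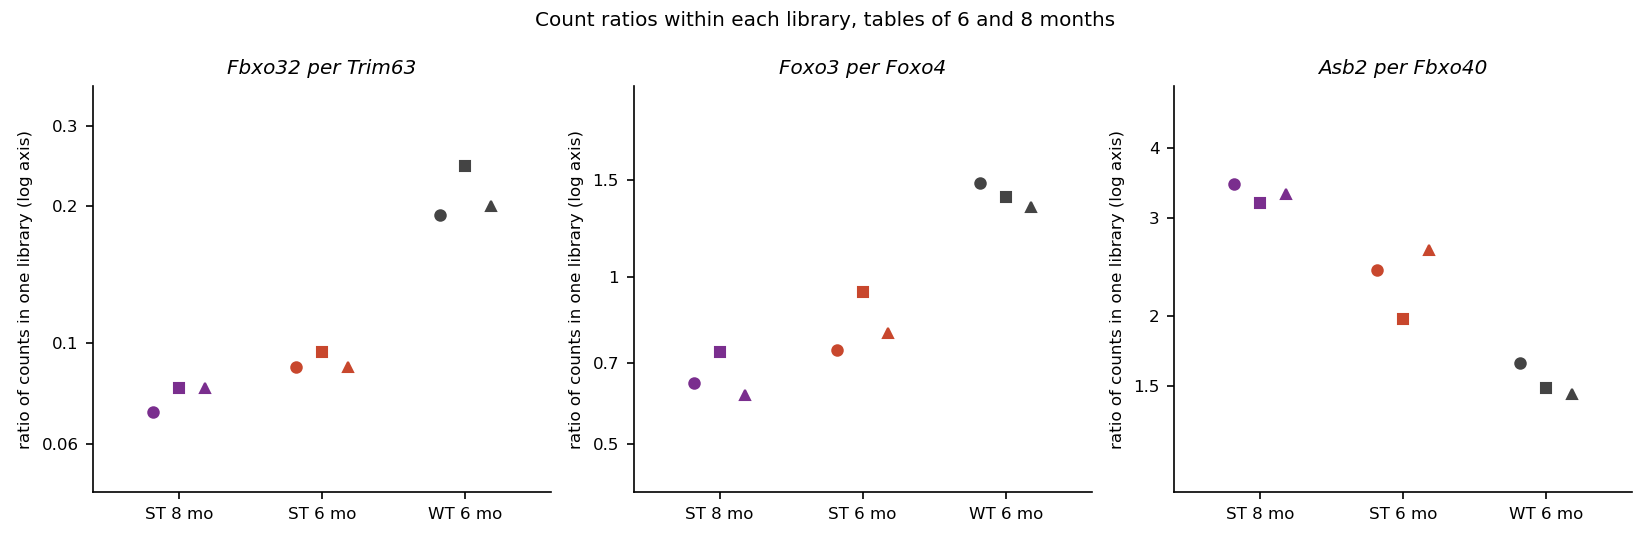
Count ratio of gene pairs within each library (vertical, log axis) for ST hearts at 8 months, ST hearts at 6 months and WT hearts at 6 months, 1 point per heart. The Fbxo32 to Trim63 ratio is lowest in ST hearts at 8 months and highest in WT hearts, and the Asb2 to Fbxo40 ratio has the opposite order.

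The promoter of Trim63 is shown because, of the 7 promoters of these genes in the RefSeq table (build GRCr8, windows that span the gene start), it alone held a match to the forkhead motif. Those of Asb2 and Fbxo40 are shown because these genes had the largest rises at 6 months. The forkhead letters GTAAACA were searched on both strands, as were the palindrome of the glucocorticoid receptor, TATAAA, the E-box CACGTG and the MEF2 motif. Capitals mark the matches, and bases are counted from 1 at the 5′ end of the window.
Trim63, chr5:151816986-151817285, plus strand: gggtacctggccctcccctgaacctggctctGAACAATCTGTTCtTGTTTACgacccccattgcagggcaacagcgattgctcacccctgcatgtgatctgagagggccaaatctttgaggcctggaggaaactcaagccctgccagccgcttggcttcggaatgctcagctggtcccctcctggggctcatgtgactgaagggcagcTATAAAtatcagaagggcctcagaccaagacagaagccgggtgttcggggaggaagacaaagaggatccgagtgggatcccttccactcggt
Asb2, chr6:128275601-128275900, minus strand: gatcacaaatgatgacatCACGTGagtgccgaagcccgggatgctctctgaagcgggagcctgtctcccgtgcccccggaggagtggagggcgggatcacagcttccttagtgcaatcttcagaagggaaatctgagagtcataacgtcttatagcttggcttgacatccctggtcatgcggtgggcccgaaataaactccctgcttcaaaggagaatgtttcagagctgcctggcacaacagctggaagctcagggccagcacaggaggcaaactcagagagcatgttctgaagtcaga
Fbxo40, chr11:77299873-77300172, plus strand: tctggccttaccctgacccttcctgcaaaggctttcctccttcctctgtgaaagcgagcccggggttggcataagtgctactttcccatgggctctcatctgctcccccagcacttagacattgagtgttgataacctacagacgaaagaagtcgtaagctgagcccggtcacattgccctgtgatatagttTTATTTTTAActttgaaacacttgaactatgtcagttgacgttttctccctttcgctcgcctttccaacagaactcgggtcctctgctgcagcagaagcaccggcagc

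In the Trim63 window the glucocorticoid match covers bases 32 to 44 and the forkhead match, on the opposite strand, bases 46 to 52, so that they sit side by side without overlap, upstream of a TATAAA match at bases 209 to 214. The Asb2 window holds an E-box at bases 19 to 24 and the Fbxo40 window a MEF2 match at bases 193 to 202. Among 33469 RefSeq promoters of the same length 3.78% held the forkhead letters, 0.439% the glucocorticoid receptor palindrome, 14.2% TATAAA, 6.42% the E-box and 3.29% the MEF2 motif. Each of the 5 motifs matched 1 of the 7 promoters found (Trim63, Trim54, Fbxo40, Fbxo30, Asb2, Foxo1 and Foxo4); Fbxo32, Trim55 and Foxo3 were not in the table. A match is a description of letters, and binding was not measured.

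At 8 months Fbxo32 and Foxo3 were lower than in either group of 6 months. Fbxo32 had 12.1, 15.4 and 15.5 CPM in ST hearts at 8 months, all below the 21.0 to 24.6 CPM of ST hearts at 6 months (-0.64, SE 0.13, edgeR adjusted p = 0.00184). Against WT hearts of 6 months the level was 0.331 times as high (-1.60, SE 0.151, adjusted p = 7.94e-07), and 2.21% of 13095 genes changed as much. The 3 groups therefore kept one order without overlap: WT at 6 months highest, ST at 6 months next, ST at 8 months lowest.

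Foxo3 had 55.3, 71.6 and 61.8 CPM in ST hearts at 8 months, against 74.0 to 78.3 CPM in ST hearts at 6 months. The gap to ST hearts of 6 months was narrow (-0.27, SE 0.0899, adjusted p = 0.028) and did not pass with scaling by library totals (adjusted p = 0.0754), without ST replicate 3 of 6 months (0.0687), or without ST replicate 1 (0.114) or 3 (0.0866) of 8 months. Against WT hearts of 6 months Foxo3 was at 0.51 times the level (-0.97, SE 0.0905, adjusted p = 6.64e-07). Its lower level than in WT hearts was called in every setting tried, and the further step to 8 months was not.

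Asb2 stayed high, with 722, 697 and 780 CPM in ST hearts at 8 months. That overlapped the 720 to 866 CPM of ST hearts at 6 months (-0.13, interval -0.28 to 0.02) and was 1.92 times the WT level of 6 months (0.94, SE 0.0818, adjusted p = 2.93e-07). Without ST replicate 2 of 6 months the change between the ST groups was -0.20 with an adjusted p = 0.00805.

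Trim63, Trim54 and Fbxo40 were lower at 8 than at 6 months in ST hearts. Trim63 had 171, 194 and 194 CPM at 8 months, below all ST hearts of 6 months (-0.40, SE 0.0685, adjusted p = 0.000557). Trim54 had 334, 310 and 312 CPM (-0.40, SE 0.0589, adjusted p = 0.000162), and Fbxo40 had 210, 219 and 235 CPM (-0.64, SE 0.0661, adjusted p = 9.65e-06). Against WT hearts of 6 months Trim63 (-0.13, interval -0.29 to 0.03) and Trim54 (0.01, interval -0.14 to 0.17) overlapped. Fbxo40 lay just below every WT heart without passing the test (-0.17, SE 0.0694, adjusted p = 0.07). Without WT replicate 1 Trim63 passed as lower (-0.19, adjusted p = 0.0368).

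Foxo1 was the only one of the 10 called higher in ST hearts at 8 than at 6 months, with 55.7, 62.9 and 64.4 CPM at 8 months (0.26, SE 0.0793, adjusted p = 0.0191). It overlapped WT hearts of 6 months by a narrow margin (-0.15, interval -0.34 to 0.03). The rise against ST hearts of 6 months is fragile: DESeq2 gave an adjusted p = 0.0808, and leaving out ST replicate 3 of 6 months or ST replicate 2 or 3 of 8 months gave 0.0725, 0.0797 and 0.0891. Trim55 (183 to 197 CPM) and Foxo4 (85.8 to 101 CPM) overlapped both groups of 6 months. Fbxo30 (36.2 to 40.9 CPM) overlapped ST hearts and lay above WT hearts of 6 months without passing (0.23, SE 0.0935, adjusted p = 0.0732), and passed without WT replicate 2 (0.29, adjusted p = 0.0492).

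Between ST hearts of 8 and 6 months 6 of the 10 genes were called, 1 higher and 5 lower, where 39.6% of 12931 genes were called, 19.1% higher and 20.5% lower, and 51.1% did not overlap. The median of the 10 was -0.20 and that of all genes 0.019. Against WT hearts of 6 months 3 were called, 1 higher and 2 lower, where 33.9% of genes were called, 17.8% higher and 16.1% lower. Groups did not overlap for 5 of the 10 and for 46.8% of all genes. With library totals the calls over all genes split into 3072 higher and 2140 lower between the ST groups (2464 and 2651 with TMM), and into 1880 higher and 2856 lower against WT hearts (2329 and 2112 with TMM). The comparisons of 6 and 8 months share libraries, so their values stand side by side and do not support one another. Time point and count table cannot be told apart between 8 and 6 months. Against WT hearts of 6 months the vector differs as well and cannot be told from them.

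At 2 months Fbxo30 was the only one of the 10 called. It had 64.3 and 52.3 CPM in ST hearts and 39.3 and 38.1 CPM in WT hearts, a level 1.51 times as high (0.59, SE 0.143, adjusted p = 0.0238). Both ST hearts were above both WT hearts, but the adjusted p was 0.192 without WT replicate 1 and 0.205 without WT replicate 2. Of all 12121 genes tested 4.8% were called, 2.7% higher and 2.1% lower. These are 582 genes, and the count was 2013 without ST replicate 2 and 271 without WT replicate 1. Erythroid markers were also higher in ST hearts, summing to 309 and 402 CPM against 147 and 182 CPM in WT hearts, and their part in the result was not tested.

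Fbxo32 and Foxo3, the pair that was low later, leaned upward at 2 months. Fbxo32 had 175 and 200 CPM in ST hearts and 146 and 155 CPM in WT hearts (0.32, SE 0.129, adjusted p = 0.19). Foxo3 had 77.0 and 99.2 CPM in ST hearts and 65.7 and 73.2 CPM in WT hearts (0.34, SE 0.144, adjusted p = 0.211). Neither passed, although both passed without ST replicate 1 (adjusted p = 0.0358 and 0.00685), the ST heart with the lower level of each.

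Fbxo40 also stood higher in both ST hearts, at 197 and 208 CPM against 154 and 181 CPM in WT hearts (0.28, SE 0.131, adjusted p = 0.268). Trim55 had 115 and 114 CPM in ST hearts and 105 and 107 CPM in WT hearts, a small gap (0.11, interval -0.15 to 0.37). The groups of Trim63, Trim54, Asb2, Foxo1 and Foxo4 overlapped. In Asb2 the ST hearts lay far apart, at 354 and 484 CPM, with 488 and 458 CPM in WT hearts. Without ST replicate 2 it was lower at -0.42 (adjusted p = 0.0244), and without ST replicate 1 it stood at 0.03.

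In all, 5 of the 10 genes did not overlap between ST and WT hearts at 2 months, each of them higher in ST hearts. Of all genes 48.9% did not overlap, 24.8% higher and 24.1% lower in ST hearts. The median of the 10 was 0.14 and that of all genes 0. With 2 hearts per group the interval of Trim63 ran from -0.14 to 0.49, which takes in its change of 0.26 at 6 months.

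**Figure D4:**
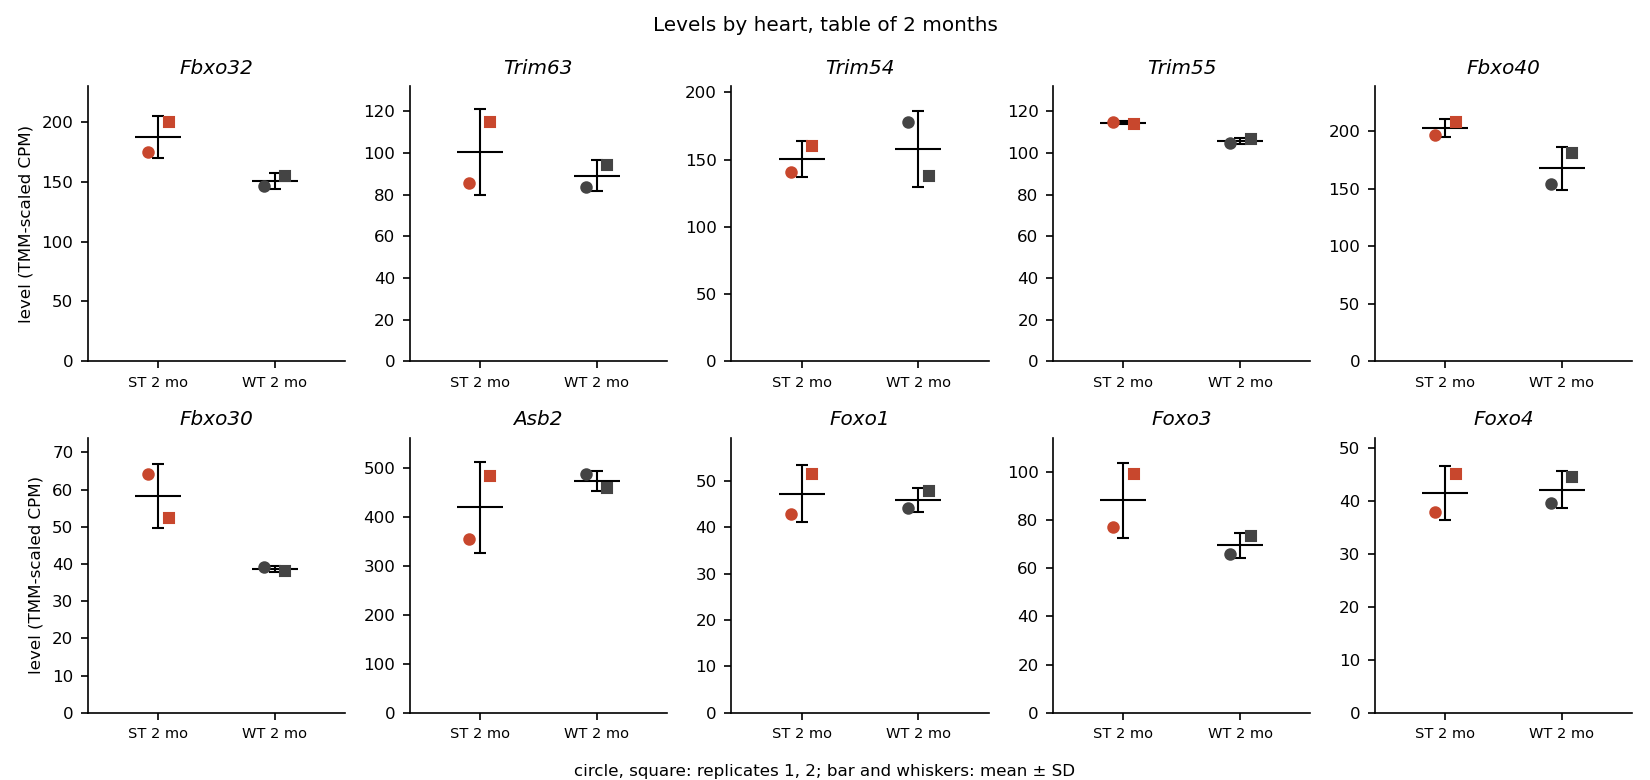
Level of each gene (vertical axis, TMM-scaled CPM, from 0) in 2 ST and 2 WT hearts at 2 months, with mean ± SD. Fbxo30 is the gene that passed the test, and Fbxo32, Foxo3, Fbxo40 and Trim55 lie higher in both ST hearts without passing it.

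The ST effect differed between 6 and 2 months for 5 of the 10 genes by a test of the difference itself, where 22.2% of 12658 genes did, 10.2% with a higher and 12% with a lower effect at 6 months. With library totals those calls were 1005 higher and 1893 lower, against 1294 and 1517 with TMM. Fbxo32 had an effect lower by 1.30 on the log2 scale at 6 months (-1.30, SE 0.184, adjusted p = 0.000137), Foxo3 one of -1.06 (SE 0.154, adjusted p = 0.000168) and Asb2 one of 1.23 (SE 0.182, adjusted p = 0.000201). Trim54 (0.47, adjusted p = 0.0427) and Foxo1 (-0.48, adjusted p = 0.0335) passed narrowly, and leaving out single hearts ended the call of Trim54 in 6 fits (adjusted p 0.059 to 0.304) and that of Foxo1 in 6 fits (0.0542 to 0.149). Fbxo30, called at 2 months alone, was not shown to differ between the time points (-0.44, adjusted p = 0.0619; 0.0482 with a replicate block).

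Upstream of the FOXO factors, genes of insulin and IGF1 signalling moved in both directions. At 6 months 7 were higher and 6 lower of 27 tested, with a median of 0.04. Of all genes 19.9% were called higher and 20.1% lower at 6 months, so such counts near those shares are no result about a list. Irs2, an insulin receptor substrate that FOXO factors switch on in liver, had 424 ± 20.3 CPM in ST hearts and 30.1 ± 1.05 CPM in WT hearts (SD, n = 3 each; 3.82, SE 0.0756). Pik3r1, the regulatory subunit of the kinase that feeds AKT, fell by 1.43 (SE 0.0709), Acvr2b, a receptor of myostatin, fell by 1.52 (SE 0.157), and Sgk1, a kinase that also phosphorylates FOXO factors, rose by 1.83 (SE 0.141).

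At 8 months against WT hearts of 6 months 4 were higher and 10 lower of 28, where 17.8% and 16.1% of all genes were. The called genes of the list included Irs2 at 1.64 (SE 0.0778), Sgk1 at 1.54 (SE 0.113), Pik3r1 at -1.23 (SE 0.0715) and Irs1 at -1.11 (SE 0.219). At 2 months the 2 called of 28 were Irs2 (2.30, SE 0.133) and Irs1, which was lower (-0.75, SE 0.128). There 4.8% of all genes were called. Irs1 is the reported substrate of Fbxo40. At 6 months Irs1 was called lower (-0.56, SE 0.191, adjusted p = 0.0355) and Fbxo40 higher, while at 2 months and at 8 months against WT hearts Irs1 was called lower and Fbxo40 was not called. Protein of either was not measured.

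Partners and modifiers of FOXO factors included Foxo6, the remaining FOXO gene, with 1.87 ± 0.351 CPM in ST and 9.67 ± 0.433 CPM in WT hearts at 6 months (SD, n = 3 each; -2.37, SE 0.202). The 14-3-3 genes Ywhag and Ywhaz, whose proteins hold phosphorylated FOXO factors outside the nucleus, rose by 0.61 (SE 0.0614) and 0.62 (SE 0.0636). Of this list 5 were higher and 3 lower of 19 at 6 months (median 0.06), where 19.9% and 20.1% of all genes were. At 8 months against WT hearts of 6 months 2 were higher and 8 lower (median -0.14), where 17.8% and 16.1% were. At 2 months 1 was higher and 0 lower, where 2.7% and 2.1% of all genes were. The gene called at 2 months was the deacetylase Sirt1 (0.69, SE 0.162).

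Other FOXO targets did not follow Fbxo32 as a group. Of 28 tested 7 were higher and 10 lower at 6 months (median 0.03), where 19.9% and 20.1% of all genes were. At 8 months against WT hearts of 6 months 9 were higher and 8 lower (median 0.01), where 17.8% and 16.1% were. At 2 months 4 were higher and 1 lower (median 0.07), where 2.7% and 2.1% of all genes were. Pdk4, which restrains glucose oxidation and is a classical FOXO target, had 892 ± 138 CPM in ST hearts and 113 ± 17.5 CPM in WT hearts at 6 months (SD, n = 3 each; 2.98, SE 0.127). Pik3ip1, an inhibitor of PI3-kinase, had 21.2 ± 1.68 CPM in ST and 130 ± 2.89 CPM in WT hearts (-2.62, SE 0.081). The cell cycle inhibitor Cdkn1a rose by 2.57 (SE 0.0888) and Sesn1, a brake on mTOR, fell by 0.93 (SE 0.0674).

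**Figure D5:**
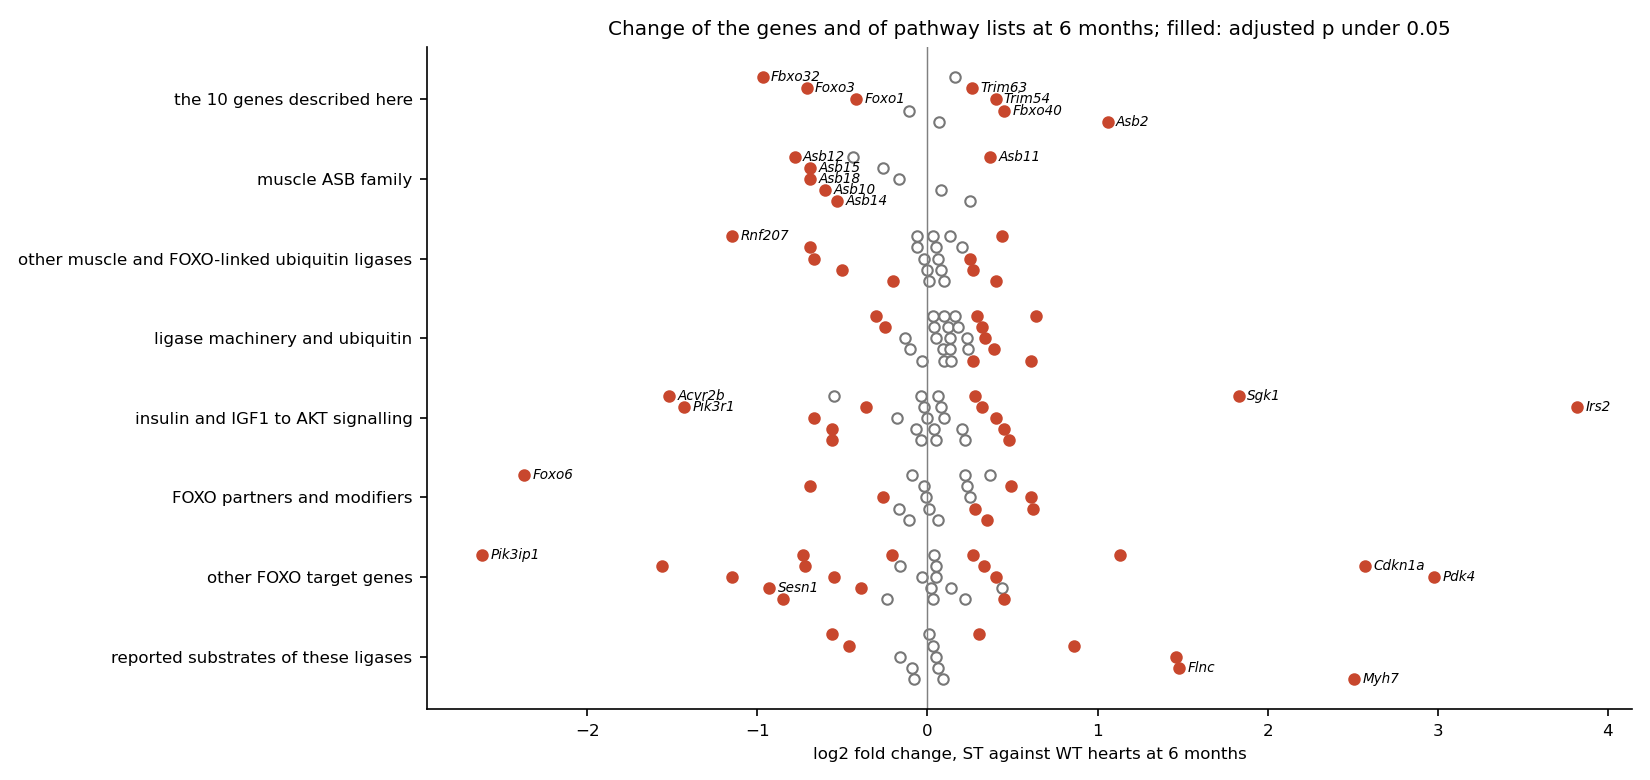
Log2 fold change of ST against WT hearts at 6 months (horizontal axis) for the 10 genes and 7 lists of pathway genes (rows); each point is a gene, filled points passed an adjusted p of 0.05, and some are labelled. Asb2 is at 1.06 while 5 of 11 other ASB genes are called lower, where 20.1% of all genes are. FOXO targets spread from -2.62 for Pik3ip1 to 2.98 for Pdk4.

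Of 11 ASB relatives of Asb2 tested at 6 months 5 were called lower, 1 higher and 5 not called, with a median of -0.44, where 20.1% of all genes were called lower. At 2 months 1 was higher and 0 lower (Asb15, 0.52, SE 0.133), where 2.7% and 2.1% of all genes were. Asb15 stood at -0.69 (SE 0.12) at 6 months, Asb12 at -0.78 (SE 0.138), Asb14 at -0.53 (SE 0.0955) and Asb10 at -0.60 (SE 0.11), each called lower. Asb18 stood at -0.69 and the one called higher, Asb11, at 0.37 at 6 months, values picked after they were seen. The rule named both genes in ST hearts at 8 against 6 months. There Asb18 was higher (1.00, SE 0.154) and Asb11 lower (-0.34, SE 0.0695). At 8 months against WT hearts of 6 months 0 of 10 were higher and 3 lower, where 17.8% and 16.1% of all genes were.

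Other ubiquitin ligases of muscle or linked to FOXO factors were called higher for 4 and lower for 5 of 21 at 6 months (median 0.03). The shares of all genes were 19.9% higher and 20.1% lower. Rnf207, a cardiac ligase of potassium channel biology, had 99.8 ± 14.9 CPM in ST and 223 ± 15.9 CPM in WT hearts (SD, n = 3 each; -1.15, SE 0.0993), and was 1.01 higher (SE 0.103) in ST hearts at 8 than at 6 months. Fbxo21 (SMART), a FOXO-driven F-box gene in mouse muscle, fell by 0.67 (SE 0.101) at 6 months. At 2 months Fbxl22, a sarcomeric F-box gene, was lower (-1.03, SE 0.159), as was Trim72 (-0.54, SE 0.147), and Cblb was higher (0.58, SE 0.162). Later Fbxl22 was higher in ST than in WT hearts at 6 months (0.44, adjusted p = 0.0162) and at 8 months against WT hearts of 6 months (1.00, adjusted p = 3.51e-06), and Trim72 was higher at 6 months (0.25, adjusted p = 0.0464) and at 8 months (0.38, adjusted p = 0.00293).

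A list of ligase machinery and ubiquitin genes also held deubiquitinases, which remove ubiquitin. Of its 26 genes 7 rose and 2 fell at 6 months (median 0.13). Among all genes 19.9% were called higher and 20.1% lower. At 8 months against WT hearts of 6 months 11 rose and 2 fell (median 0.16), where 17.8% and 16.1% of all genes did. The deubiquitinase gene Usp2 was among those that fell (-0.93, SE 0.0635). Skp1, the adaptor that carries F-box proteins such as Fbxo32, rose by 0.27 (SE 0.0641) at 6 months. At 2 months 0 of 25 were higher and 1 was lower, the conjugating enzyme gene Cdc34 (-0.60, SE 0.148). The shares of all genes there were 2.7% higher and 2.1% lower.

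Reported substrates of these ligases were higher for 5 and lower for 2 of 15 at 6 months (median 0.05). Among all genes 19.9% were called higher and 20.1% lower. Flnc and Flna, which encode filamins, a protein class that Asb2 marks for removal, were called higher at 6 months as Asb2 was, Flnc by 1.48 (SE 0.075) and Flna by 0.86 (SE 0.0746). In ST hearts at 8 against 6 months Flnc was lower (-1.59, SE 0.0733), while Asb2 was not called. Myh7, the slow myosin reported as a substrate of Trim63, rose by 2.51 (SE 0.114) at 6 months.

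Genes of other responses that touch this pathway moved in the same hearts, and their part in the results above was not tested. Glucocorticoid-responsive genes are a class to which Trim63 and Fbxo32 belong in rat muscle. The 15 listed at 6 and 8 months summed to 1150 to 1160 CPM in ST hearts at 8 months. At 6 months they summed to 2060 to 2500 CPM in ST and 1290 to 1320 CPM in WT hearts. At 2 months only 14 of them were listed, with sums of 1060 and 1230 CPM in ST and 637 and 650 CPM in WT hearts. The sums of 2 months are not compared with the later ones. Of 15 tested 9 were higher and 3 lower at 6 months, where 19.9% and 20.1% of all genes were. At 2 months 5 of 14 tested were higher and 0 lower, where 2.7% and 2.1% of all genes were. At 8 months against WT hearts of 6 months 6 were higher and 8 lower, where 17.8% and 16.1% were. Pdk4, given above among the FOXO targets, is also in this list, and its 892 CPM in ST and 113 CPM in WT hearts at 6 months make up much of the gap between those sums. Fkbp5, a standard reporter of that hormone, had 30.5 ± 0.451 CPM in ST hearts at 8 months, 121 ± 3.51 CPM in ST and 84.7 ± 1.65 CPM in WT hearts at 6 months (SD, n = 3 each).

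Clock genes summed to 808 to 822 CPM in ST hearts at 8 months, 926 to 946 CPM in ST and 1450 to 1500 CPM in WT hearts at 6 months. Of 17 tested 8 were lower and 7 higher at 6 months, where 20.1% and 19.9% of all genes were. At 8 months against WT hearts of 6 months 12 were lower and 3 higher, where 16.1% and 17.8% were. At 2 months 3 were lower and 1 higher, where 2.1% and 2.7% were. The time of day of harvest is not in the labels. Immediate early genes respond to handling and stress within minutes. They were higher for 22 of 23 at 6 months, against 19.9% of all genes. At 2 months 5 of 21 were higher and 1 lower, where 2.7% and 2.1% of all genes were. At 8 months against WT hearts of 6 months 9 of 19 were higher and 5 lower, where 17.8% and 16.1% were. In ST hearts at 8 against 6 months they were lower for 22 of 23, against 20.5% of all genes. Their sums were 667 to 689 CPM, 2250 to 2450 CPM and 578 to 638 CPM in ST hearts at 8 months, ST hearts at 6 months and WT hearts at 6 months. Of the genes described above, Trim63, Trim54 and Fbxo40 were highest in ST hearts at 6 months, and Fbxo32 and Foxo3 in WT hearts at 6 months. Asb2 overlapped between both ST groups. A link between the immediate early genes and any of these genes was not tested.

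Of other cell types, endothelial markers summed to 1900 to 2080 CPM in ST hearts at 8 months, 1450 to 1670 CPM in ST and 1410 to 1610 CPM in WT hearts at 6 months. Fibroblast markers summed to 1370 to 1470, 1200 to 1300 and 1400 to 1530 CPM in those groups, and macrophage markers to 122 to 132, 156 to 213 and 159 to 204 CPM. Heart muscle markers were at 131000 to 132000, 116000 to 124000 and 125000 to 134000 CPM. Erythroid markers summed to 398 to 845, 715 to 793 and 402 to 537 CPM, with 6 of 7 tested called higher at 6 months, among them Slc4a1 (2.99, SE 0.142). Smooth muscle and pericyte markers summed to 730 to 1010, 709 to 883 and 725 to 787 CPM, with 5 of 10 called higher and 1 lower at 6 months. Those higher included Acta2 (1.27, SE 0.153) and Cnn1 (2.83, SE 0.502). Cnn1 was near the floor, at 2.09 to 5.63 CPM in ST and 0.258 to 0.958 CPM in WT hearts. Single markers of endothelium and fibroblasts moved in both directions at 6 months. Of 10 endothelial markers 3 were called higher and 2 lower, among them Cldn5 (1.58, SE 0.126) and Emcn (-0.62, SE 0.0954). Of 10 fibroblast markers 3 were called higher and 4 lower (median -0.03), with Col1a1 among the lower (-1.16, SE 0.106). The shares of all genes called at 6 months were 19.9% higher and 20.1% lower. The part of cell makeup in the results was not tested.

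The genes whose pattern over the 9 libraries of 6 and 8 months was most like that of each gene were picked by the Pearson correlation of log2 CPM, which here mostly follows the differences between 3 groups of 3 hearts and is given as a description. Among 13593 genes the closest to Fbxo32 were RT1-Da, Kcnj2 and Arhgef17 (0.977 to 0.985), and to Foxo3 they were Esrrg, Zer1 and Hip1 (0.972 to 0.979). Asb2 was most like S1pr1, Mrps2 and F2rl1 (0.986 to 0.987), and Fbxo40 was close to Tp53inp2 (0.991) and Rell1 (0.983). Trim54 was closest to Gem, Ccl7 and Cxcl1 (0.978 to 0.980), and Trim63 to Tstd2, Kdm5c and Gsn (0.977 to 0.984). Foxo4 and Trim55, the genes that passed in no comparison, reached 0.911 with Nfkbil1 and 0.949 with Tspan5.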

How the data were processed

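The values are expected counts per gene name, deposited by the authors in 3 tables, 1 per time point; the sources used here name no counting tool. Genome builds of mouse stand in the submitters' processing notes, while the tables hold rat gene names. All 13 sample columns were used. Expected counts were rounded, filtered with filterByExpr, scaled by TMM and tested in R 4.3.3 with edgeR 4.0.16 (quasi-likelihood F test), on the libraries compared alone and over all genes. Each SE was derived from the fold change and its F statistic, and intervals of 95% derived from it are approximate. The difference of effects used the 10 hearts of 2 and 6 months and the names in both tables. The p-values measure the spread between these samples. Limits from 0 counts take 3 counts and cover counting error only. Replicates of each group differed by more than sampling noise, at a chi-square of 1.93 to 12.1 per gene. ST replicate 2 of 6 months gave 6.89 and 8.67 against replicates 1 and 3, which gave 1.93 between them. WT replicate 1 of 6 months gave 8.49 and 7.51 against replicates 2 and 3, which gave 2.13. The transgene was at 90.4 CPM in ST replicate 2 of 6 months and at 197 and 209 CPM in replicates 1 and 3.

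The genes, the pathway and marker lists (20 lists, 316 entries) and the comparisons were chosen with earlier results of these data known. Named genes are the 10 genes in every comparison and up to 4 genes of each list with the smallest p among those called in a comparison, plus the 3 most alike to each of the 10; the text gives a selection, and some of these genes are not reported here. Alternatives were RLE size factors, library totals only, no filter, a filter of 5 CPM, DESeq2 1.42.0, limma-voom (limma 3.58.1), a replicate block, a fit over all groups, omission of haemoglobin and mitochondrial genes, and omission of each heart in turn. The procedure was tested on simulated counts. Promoter sequences are from RefSeq, build GRCr8.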

Additional observations from a re-analysis of the deposited data

Results flagged for a closer look

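The effect of the ST group differed between 6 and 2 months for 5 of the 10 genes by edgeR's test of the difference itself, where 22.2% of 12658 genes did, on the log2 scale and with values given as 6 minus 2 months. The difference was -1.30 for Fbxo32 and -1.06 for Foxo3, which leaned higher in ST than in WT hearts at 2 months and were lower at 6 months, and 1.23 for Asb2, which was higher at 6 months. Their adjusted p-values were 0.000137, 0.000168 and 0.000201. It was 0.47 for Trim54 and -0.48 for Foxo1, both of which lost their call when certain single hearts were left out, so that the count fell to 3. The 2 time points come from tables with different gene names and from different hearts, and what sets them apart was not tested.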

How the results depend on the processing

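Of 440 values of single genes under another setting than leaving out a heart, 429 kept their direction and their side of the threshold, and of 320 with 1 heart left out 276 did. The count of called genes was the same or within 1.5 times in every setting but these. At 8 months against WT hearts of 6 months it was 5 in place of 3 with library totals only. There Trim63 (-0.19, edgeR adjusted p = 0.0424) and Fbxo40 (-0.23, adjusted p = 0.014) passed. Over all 13095 genes of that comparison 4736 were called with library totals and 4441 with TMM. Library totals shifted the median of all genes at 6 months to -0.116, and the direction turned for Foxo4 at 6 months (-0.04) and for Trim54 at 8 months against WT hearts (-0.05), neither of them called. Over all genes the 582 calls at 2 months were 1019 with no filter, 359 with DESeq2 and 1237 in a fit over all groups, and 271 to 2013 with 1 heart left out; the 2811 calls for the difference of effects were 1558 without WT replicate 1 of 2 months. With 1 heart left out the count of the 10 genes called ranged from 0 to 3 at 2 months, where it was 1 with all hearts: 3 without ST replicate 1, 2 without ST replicate 2 and 0 without either WT heart. For the difference of effects it ranged from 3 to 5, and was 3 without ST replicate 1 or 3 of 6 months, WT replicate 1 of 6 months or WT replicate 1 of 2 months; the lost calls were those of Trim54 and Foxo1. With a replicate block the counts were 1 at 2 months, 7 at 6 months and 6 at 8 against 6 months in ST hearts. They were 3 at 8 months against WT hearts and 6 for the difference of effects. The block ended no call and added Fbxo30 in the last (edgeR, adjusted p = 0.0482). Over all genes the calls with the block were 636, 5435, 5427, 4652 and 2941 in the same order. Without it they were 582, 5305, 5115, 4441 and 2811. Deviations of log2 CPM from the group mean correlated at 0.0039 to 0.178 between same-numbered hearts over all comparisons. Between hearts of different number the range was -0.112 to 0.0668. With 2 hearts per group, as at 2 months, such values can differ in sign alone.

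With 1 heart left out the direction turned for some values, and no value that turned was past the threshold. The ranges at 2 months were -0.05 to 0.37 for Trim63, -0.25 to 0.13 for Trim54, -0.42 to 0.03 for Asb2 (called at its lowest value, adjusted p = 0.0244), -0.09 to 0.17 for Foxo1 and -0.15 to 0.10 for Foxo4. They were -0.06 to 0.09 for Foxo4 and -0.02 to 0.10 for Fbxo30 between ST hearts of 8 and 6 months, -0.07 to 0.06 for Trim54 and -0.12 to 0.04 for Trim55 at 8 months against WT hearts, and -0.12 to 0.30 for Trim63 and -0.04 to 0.20 for Foxo4 in the difference of effects. The cause of these changes was not tested. A heart left out at 2 months leaves 1 heart in its group, which is then assumed to vary like the other group. Depth did not limit detection, since every gene had at least 57 counts in each library.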
